A study of Mus musculus with 54 samples.

Results

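In total, 13 of 15117 named genes fell at least 2-fold from day 0 to day 1 of myogenic differentiation and rose at least 2-fold from day 1 to day 2 in both wildtype and EMD-/y progenitors. They were chosen by their measured values. A member had a log2 ratio of group means, with 1 added to each mean, of at most -1 for the fall and at least 1 for the rise in both lines, and means of at least 30 normalized counts on days 0 and 2. Of these, 12 are described here, namely Pebp1, Gm4737, Atp5md, Wdr89, Mcrip2, Fkbp11, Lrp1b, Asns, Gsta4, Slc29a2, Syt7 and Rpl39. Their dip in wildtype and EMD-/y progenitors is therefore the rule and not a result, and what follows describes them in the 4 lines that the rule did not use.

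The progenitors were H2K mouse myogenic cells, which carry a conditional T antigen that γ-interferon in the growth medium keeps on. The wildtype and EMD-/y lines were untransduced. EMD-/y cells lack emerin, an inner nuclear membrane protein whose loss causes Emery–Dreifuss muscular dystrophy. The other 4 lines were EMD-/y cells transduced with lentivirus to carry wildtype emerin (+EMD) or the disease-causing emerin forms S54F, Δ95–99 and Q133H. These 4 lines were selected with puromycin, at the same dose for S54F and Δ95–99 and at other doses for Q133H and +EMD. The mutant lines were plated more densely than the untransduced lines. Transduction, drug and density therefore cannot be told apart from one another in the transduced lines, nor dose from emerin form where the dose differed. The plating density of +EMD for RNA was not given in the sources used here. The labels name 1 line of each kind, and the mouse ages were not given in the sources used here. RNA was taken on day 0 (the change to differentiation medium), day 1 (24 h) and day 2 (48 h). This gave 18 groups and 54 samples, with 3 labelled replicates in each group. With the change of medium the cells also went to a higher temperature, and the differentiation medium was listed without γ-interferon. These cannot be told apart from differentiation in the change from day 0 to day 1. The methods give 3 technical replicates for each of 2 biological replicates. The deposited tables hold only the authors' mean of each group, so no spread between replicates and no test can be given, and every difference below is a difference between 2 means.

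Adding up the means of all genes gave 16.7 M to 21.1 M normalized counts for a group. Emd was listed at 987 to 1962 in wildtype and at 0.141 to 3.52 in the other 5 lines, so the emerin transgenes were not seen under this gene. Myod1, the myogenic determination factor, ranged from 6217 to 25426 and Des, the muscle intermediate filament, from 9594 to 63503. The leukocyte marker Ptprc reached 2.04 at most and the adipocyte marker Adipoq 0.560. Other macrophage and leukocyte markers differed, with Adgre1 at 0.384 and Csf1r at 25.0 at most. Itgam reached 265 in wildtype on day 2 after 3.42 on day 0, and Cd68 reached 119.5 in Q133H on day 2. The fibroblast marker Pdgfra reached 74.9. Pax7, the satellite cell factor, was at 3.62 to 8.38 in Q133H. Ly6a, a marker of fibro-adipogenic cells that interferon also raises, fell in wildtype from 4989 on day 0 to 1001 on day 1 and 310 on day 2, and its part in the results below was not tested. As the RNA came from whole cultures, fewer cells of a type and less RNA per cell cannot be told apart.

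One feature of the libraries has to be stated before the results. Besides the named genes, 48 of 1352 unnamed genes, which carry only an identifier of the sequencing provider, met the same folds and means. In wildtype the summed mean of these 48 genes was 16974 on day 0, 2798 on day 1 and 20527 on day 2. In EMD-/y it was 24227, 2815 and 22145. The other lines had the low sum on day 0 instead, with 2868, 20830 and 30202 in S54F, 2706, 22095 and 20827 in Δ95–99, and 3091, 17807 and 18532 in Q133H. In +EMD the day 0 sum was intermediate, 8199, against 18217 on day 1 and 18789 on day 2. The low day 1 of these 48 genes in both untransduced lines is fixed by the folds that chose them. What the folds did not fix is that they were low on day 0 in the 3 mutant lines. From day 0 to day 1, 48 of the 48 rose past 2-fold for S54F, 48 for Δ95–99, 48 for Q133H and 35 for +EMD, with median log2 changes of 3.45, 3.71, 3.07 and 1.21. Of 370 unnamed genes compared in all lines, 49 (13.2%) fell past 2-fold in wildtype and EMD-/y and rose past 2-fold in the 3 mutant lines. The opposite was seen for 10 of the 370. The part of this library pattern in the members' values was not tested.

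**Figure D1:**
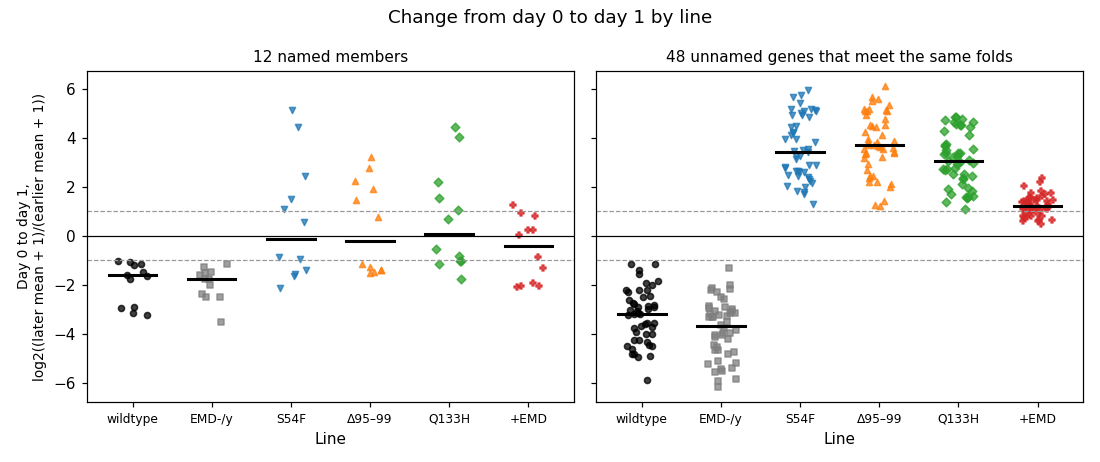
Change from day 0 to day 1 in each line, as log2((later mean + 1)/(earlier mean + 1)), for the 12 members (left) and for the 48 unnamed genes that meet the same folds (right). Each point is a gene, black bars are medians and dashed lines mark 2-fold. Wildtype and EMD-/y are below the dashed line by the rule, the unnamed genes lie above 0 in the other 4 lines, and the members divide above and below 0.

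The members do not belong to one pathway. Several have housekeeping roles, such as making ATP, proteins or asparagine, and others act in vesicle fusion, in detoxification or in the uptake of nucleosides and lipoproteins. When myoblasts are moved to low serum they leave the cell cycle within a day and then switch on contractile genes. In wildtype and EMD-/y the median of a list of cell cycle genes fell in both steps. The median of a list of late muscle genes rose in both. A transcript that dips and returns differs from both patterns in these lines. In Q133H, however, most late muscle genes also dipped, as given below with the gene lists.

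The 12 members divided evenly in the 4 transduced lines. In total, 6 members (Mcrip2, Fkbp11, Asns, Gsta4, Slc29a2 and Syt7) had lower means on day 1 than on day 0 in each of S54F, Δ95–99, Q133H and +EMD, and are called the falling members. The other 6 (Pebp1, Gm4737, Atp5md, Wdr89, Lrp1b and Rpl39) had higher means on day 1 than on day 0 in each of these lines, and are called the crossing members. This division was made after the values were seen and is a description. The crossing members moved in the direction of the 48 unnamed genes.

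Past 2-fold, 4 of 12 members fell from day 0 to day 1 for S54F, 6 for Δ95–99, 4 for Q133H and 5 for +EMD. The division makes all of these falling members. Of all named genes with a mean of at least 30 in either group of each table, 4.61%, 4.07%, 4.05% and 4.86% fell so in the same lines. Rises past 2-fold in the same step were seen for 5 members for S54F, 5 for Δ95–99, 5 for Q133H and 1 for +EMD. By the same division, all of them were crossing members. The shares of named genes were 7.96%, 5.99%, 4.73% and 8.62%. From day 1 to day 2, 3 members rose past 2-fold for S54F, 2 for Δ95–99, 1 for Q133H and 2 for +EMD, beside 7.16%, 6.19%, 4.80% and 8%. A whole dip, past 2-fold both ways, was kept by 2 members for S54F (Mcrip2 and Syt7), 1 for Δ95–99 (Syt7), 1 for Q133H (Gsta4) and 1 for +EMD (Asns), beside 0.356%, 0.730%, 1.68% and 0.465% of named genes. In the lines of the rule, the same shares were 7.34% for the fall, 5.68% for the rise and 0.279% for the dip in wildtype and 6.37%, 5.58% and 0.380% in EMD-/y, and the members' own counts there are fixed by the rule. The median log2 change of all named genes lay within 0.1 of 0 in each of these steps, but these values are scaled between groups, so this cannot show a shift shared by all genes.

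**Figure D2:**
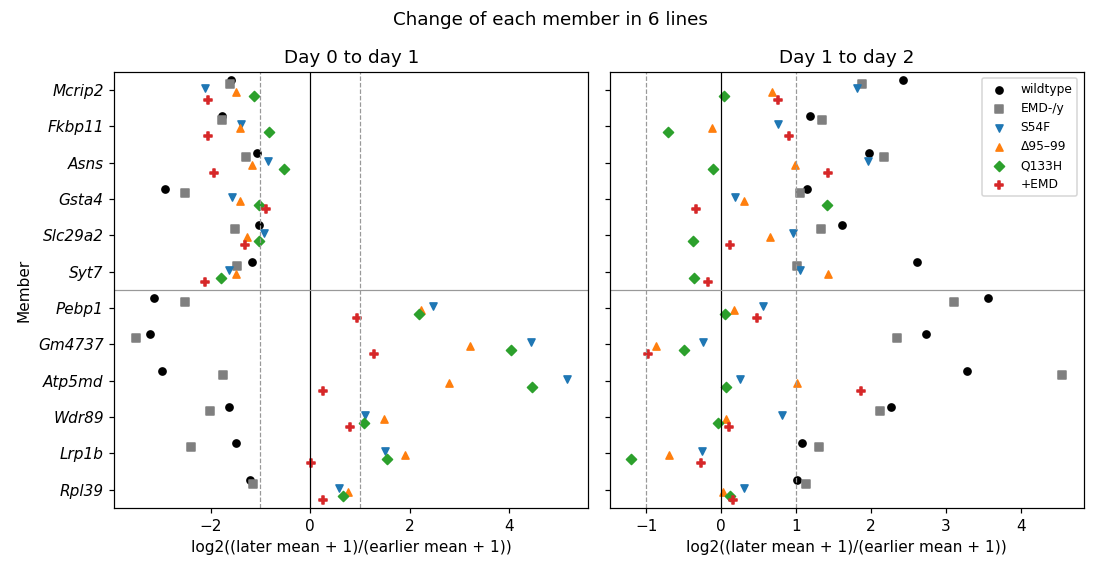
Log2((later mean + 1)/(earlier mean + 1)) of each member from day 0 to day 1 (left) and from day 1 to day 2 (right) in the 6 lines. Dashed lines mark 2-fold, and the horizontal line parts the 6 falling members, lower on day 1 than on day 0 in all 6 lines, from the 6 crossing members, which were higher on day 1 in the 4 transduced lines.

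Syt7 (chromosome 19, 10388802–10453181, GRCm38) encodes a synaptotagmin, a calcium sensor for vesicle fusion and membrane repair. Wildtype means were 55.2, 24.1 and 142, and EMD-/y means were 118, 41.5 and 76.4. In S54F they were 297, 94.7 and 177, and in Δ95–99 193, 67.6 and 184. Syt7 fell in all lines, and its return differed between them. On day 2 Q133H had 16.9 after 83.3 and 23.5, and +EMD had 104 after 545 and 126, so neither line showed a rise. The day 0 level was also the most uneven of the falling members, 545 in +EMD against 55.2 in wildtype, a log2 difference of 3.10 within their own table.

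Asns, Gsta4 and Slc29a2 serve metabolism. Asns (chromosome 6, 7675165–7693209) encodes asparagine synthetase, a target of the transcription factor ATF4 in the amino acid response. Wildtype had 2101, 1000 and 3617 normalized counts, and EMD-/y had 2347, 963 and 3980. S54F followed with 1768, 982 and 3541, its fall of 0.85 on the log2 scale short of 2-fold. In Δ95–99 the means were 1800, 800 and 1536, and in +EMD they were 2990, 781 and 1974. Q133H stood apart with 1549, 1074 and 995, without a rise. The day 1 means of the 6 lines lay within 781 to 1074, and the day 2 means within 995 to 3980.

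Gsta4 (chromosome 9, 78191966–78209349) encodes a glutathione S-transferase that clears the lipid peroxidation product 4-hydroxynonenal. It did not come back to its day 0 level in either line of the rule, with 827, 108 and 179 in wildtype and 336, 57.8 and 96.9 in EMD-/y. S54F had 750, 252 and 236, Δ95–99 404, 152 and 159, and +EMD 269, 145 and 108. In these 3 lines Gsta4 stayed low on day 2. Only Q133H among the transduced lines showed a rise past 2-fold, from 187 on day 1 to 500 on day 2 after 384 on day 0.

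Slc29a2 (chromosome 19, 5019057–5031972) encodes an equilibrative nucleoside transporter. It was at 289, 142 and 404 in wildtype and at 354, 123 and 279 in EMD-/y. The transduced lines began at 260 to 417 and were at 125 to 168 on day 1, all below their day 0 means. The day 2 means were 247 for S54F, 191 for Δ95–99, 113 for Q133H and 170 for +EMD, with a further fall in Q133H and no rise past 2-fold in the other transduced lines.

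Fkbp11 and Mcrip2 complete the falling members. Fkbp11 (chromosome 15, 98724368–98728198) encodes a prolyl isomerase of the endoplasmic reticulum. Its means were 248, 71.7 and 150 in wildtype and 301, 87.5 and 200 in EMD-/y. S54F had 364, 139 and 213, and +EMD 339, 80.6 and 144. In Δ95–99 the means were 291, 109 and 95.9 and in Q133H 279, 157 and 94.1, so these lines stayed low or went lower on day 2. Mcrip2 (chromosome 17, 25863698–25868740) had 81.2, 26.2 and 136 in wildtype, 124, 40.1 and 137 in EMD-/y, and 125, 27.9 and 93.7 in S54F. It stayed low on day 2 in the remaining lines, with 92.6, 32.1 and 49.99 in Δ95–99, 104, 47.0 and 47.7 in Q133H, and 106, 24.7 and 38.1 in +EMD.

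**Figure D3:**
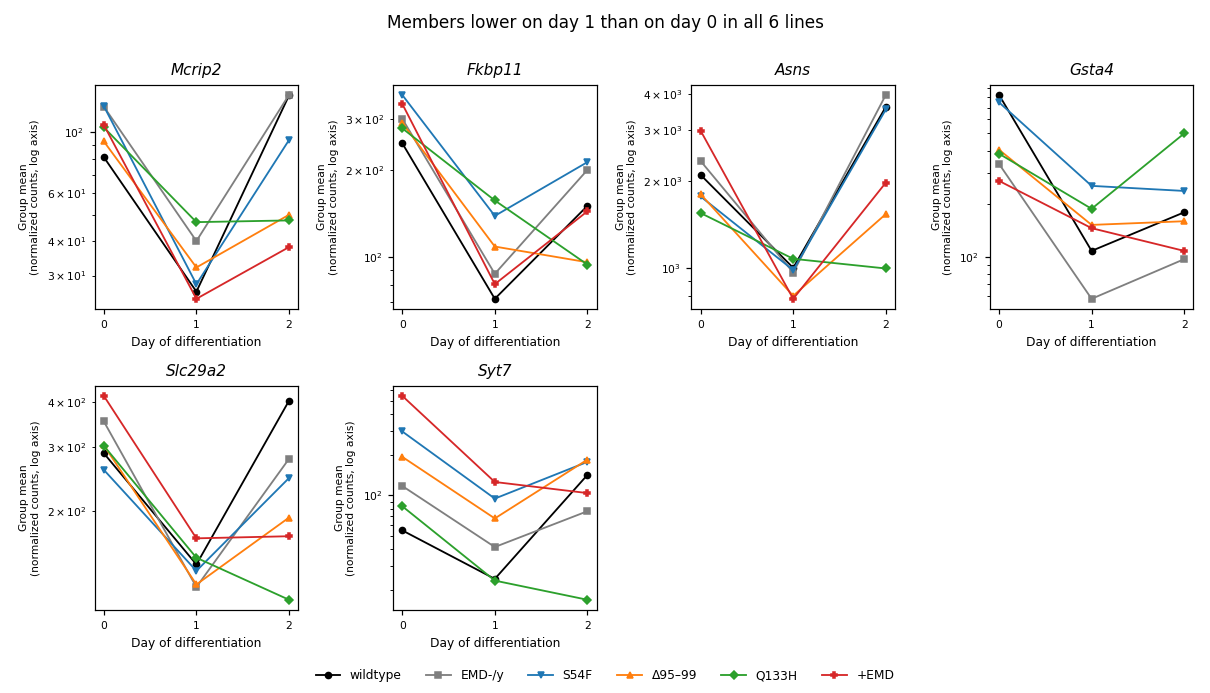
Group means of normalized counts (log axis) on days 0, 1 and 2 for the 6 falling members, which were lower on day 1 than on day 0 in all 6 lines. Each line of points is a cell line, and there are no error bars because the tables hold means only. The day 1 fall is shared, while the day 2 points spread, with Q133H lowest for Asns, Fkbp11, Slc29a2 and Syt7.

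By the division, the 6 crossing members rose from day 0 to day 1 in the transduced lines. Pebp1 (chromosome 5, 117282651–117287564) encodes the Raf kinase inhibitor protein, which restrains signalling from Raf to ERK. By the smallest of the 4 changes the rule used, it had the deepest dip of the 12, from 2521 to 283 and back to 3355 in wildtype and from 3053 to 531 and back to 4126 in EMD-/y. In S54F the low mean was on day 0, with 659, 3636 and 4955. The same order was seen in Δ95–99 with 714, 3366 and 3703 and in Q133H with 794, 3622 and 3780. In +EMD the means were 1388, 2664 and 3647, so day 0 was again the lowest but by less.

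Atp5md (chromosome 19, 47083471–47090647) encodes a small membrane subunit of the mitochondrial ATP synthase. Its means were 474, 59.6 and 645 in wildtype and 98.2, 28.4 and 277 in EMD-/y. They were 6.53, 268 and 306 in S54F, 18.5, 134 and 272 in Δ95–99, and 16.5, 386 and 408 in Q133H. These log2 rises of 5.16, 2.79 and 4.47 from day 0 to day 1 included the largest of any member in any line. In +EMD the gene was at 82.8, 99.1 and 390, with its rise past 2-fold only in the second step.

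Rpl39 (chromosome X, 37082518–37085222) encodes a small protein of the large ribosomal subunit. It was at 3396, 1464 and 2739 in wildtype and at 3502, 1579 and 3117 in EMD-/y. The transduced lines had their lowest mean on day 0, with 2057, 3085 and 3542 in S54F, 1854, 3129 and 3100 in Δ95–99, 2122, 3375 and 3676 in Q133H, and 2120, 2518 and 2656 in +EMD. None of these steps passed 2-fold.

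Wdr89 (chromosome 12, 75630594–75669537) encodes a protein with WD repeats. It was at 445, 142 and 638 in wildtype and at 695, 171 and 680 in EMD-/y. Its means were 253, 547 and 905 in S54F, 238, 666 and 676 in Δ95–99, 228, 482 and 474 in Q133H, and 345, 598 and 614 in +EMD. The rise from day 0 to day 1 passed 2-fold in the 3 mutant lines.

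Lrp1b (chromosome 2, 40595290–42653598) encodes a large endocytic receptor of the LDL receptor family, and the tables list it with a length of 915 bases, which is a short part of so large a receptor. Its means were low, 56.5, 19.5 and 39.8 in wildtype and 81.6, 14.7 and 34.1 in EMD-/y. S54F had 20.1, 58.9 and 48.8, Δ95–99 20.4, 79.3 and 47.9, and Q133H 28.3, 84.9 and 37.3. Day 0 was the lowest day in each of the 3 mutant lines. In +EMD the gene was at 59.4, 60.1 and 46.9, with no step past 2-fold.

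Gm4737 (chromosome 16, 46152985–46155077), which the naming rule left out because of the form of its symbol and which was named after its values were seen, is an intronless relative of Ahcy, the hydrolase of S-adenosylhomocysteine. It was at 114, 11.4 and 76.2 in wildtype and at 179, 14.9 and 72.3 in EMD-/y. In the transduced lines it was at 6.71, 166 and 130 in S54F, 23.6, 229 and 122 in Δ95–99, 7.44, 138 and 99.8 in Q133H, and 82.2, 201 and 107 in +EMD. It was the only member to rise past 2-fold from day 0 to day 1 in all 4 transduced lines.

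**Figure D4:**
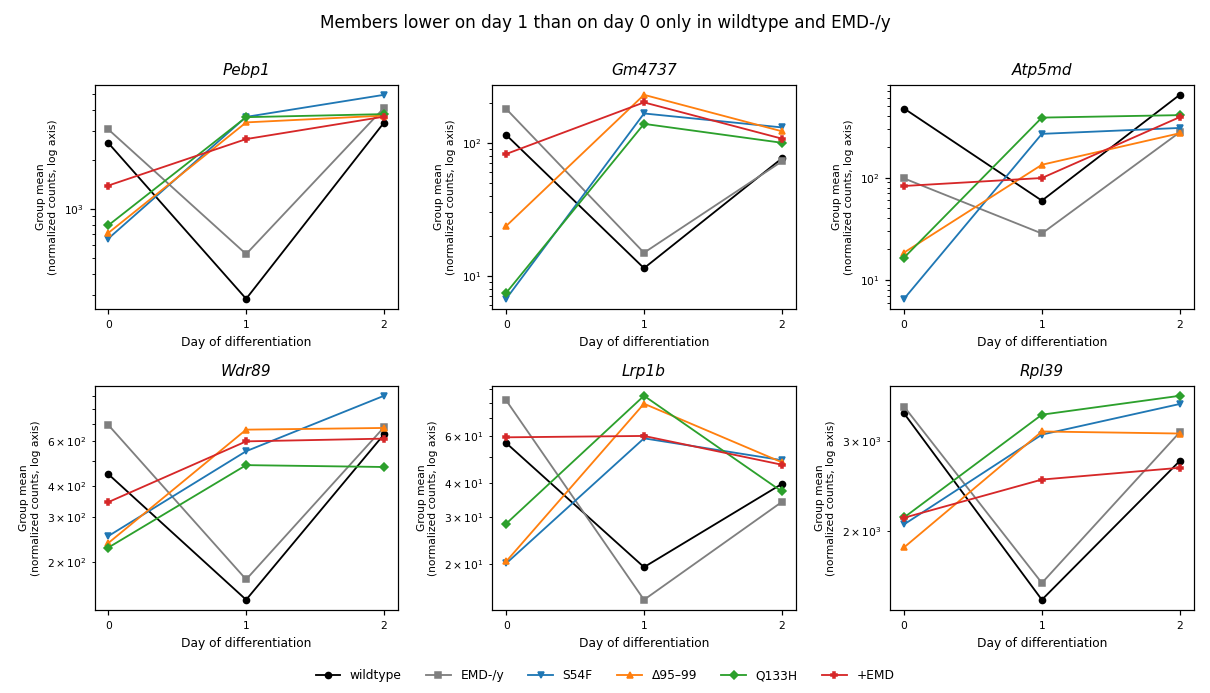
Group means of normalized counts (log axis) on days 0, 1 and 2 for the 6 members that were lower on day 1 than on day 0 only in wildtype and EMD-/y. Wildtype and EMD-/y have their lowest point on day 1, and S54F, Δ95–99 and Q133H have theirs on day 0.

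Something the rule did not use also set the crossing members apart. In total, 5 of the 12 members, or 41.7%, have a near-identical stretch in another gene that does not overlap them, taken as at least 97% identity over at least 150 bases of transcript, against 9.1% of 11729 named genes. All 5 were crossing members, namely Pebp1, Gm4737, Atp5md, Wdr89 and Rpl39, and none was a falling member. Lrp1b was the only crossing member without such a stretch. Reads from such a stretch can be placed on either gene, so the values of these 5 members are uncertain to that degree. The sequences below are shown because they are the coding stretches that 4 of these members share with another gene of the mouse genome, from GENCODE M21 transcripts.

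The first 174 coding bases of Gm4737 are the same in Ahcy (chromosome 2, 155059310–155074497), with 0 differing bases. Over 2083 bases of transcript the identity was 99.7%.

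Gm4737 and Ahcy: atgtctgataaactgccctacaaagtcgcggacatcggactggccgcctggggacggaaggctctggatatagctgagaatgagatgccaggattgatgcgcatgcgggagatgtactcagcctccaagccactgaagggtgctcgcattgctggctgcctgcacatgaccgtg

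Atp5md and the processed pseudogene Gm14539 (chromosome X, 20581141–20581314) were identical over 174 coding bases, and 2 further pseudogenes passed 97%.

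Atp5md and Gm14539: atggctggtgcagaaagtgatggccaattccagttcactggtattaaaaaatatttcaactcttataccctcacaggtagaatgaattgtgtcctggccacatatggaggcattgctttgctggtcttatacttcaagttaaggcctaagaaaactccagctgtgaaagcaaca

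Pebp1 has 2 such pseudogenes, Gm10819 and Gm9824, and the first 174 coding bases are the same in Gm9824 (chromosome 10, 29030128–29030688).

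Pebp1 and Gm9824: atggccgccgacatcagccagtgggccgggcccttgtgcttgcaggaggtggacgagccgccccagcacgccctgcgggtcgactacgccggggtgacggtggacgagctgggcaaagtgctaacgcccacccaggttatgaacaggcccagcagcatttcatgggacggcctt

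Rpl39 has 4. The nearest, Rpl39-ps (chromosome 15, 102635038–102635188), differed at 1 of 150 coding bases, which is in capitals.

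Rpl39: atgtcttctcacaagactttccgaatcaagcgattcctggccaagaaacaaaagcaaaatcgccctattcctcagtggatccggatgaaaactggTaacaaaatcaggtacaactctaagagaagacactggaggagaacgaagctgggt

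Rpl39-ps: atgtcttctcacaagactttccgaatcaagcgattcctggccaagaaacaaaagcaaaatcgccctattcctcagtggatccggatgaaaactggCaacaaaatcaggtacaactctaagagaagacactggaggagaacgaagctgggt

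Wdr89 shares 447 bases of its transcript, at 99.3% identity, with Rplp2, a protein of the ribosomal stalk. Of the copies found, values were analysed for Ahcy and Rplp2. Neither dipped. In wildtype, Ahcy was at 5002, 4564 and 2341 and Rplp2 at 4602, 4492 and 5349 on days 0, 1 and 2. From day 0 to day 1 the log2 change of Ahcy was between -0.19 and 0.08 in the 6 lines and that of Rplp2 between -0.20 and 0.11. Both are much higher than the members that resemble them.

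The crossed pattern, a fall past 2-fold from day 0 to day 1 in wildtype and EMD-/y together with a rise past 2-fold in S54F, Δ95–99 and Q133H, was counted over all genes. It was found in 5 of 1000 named genes with a near-identical copy (0.5%), in 1 of 9763 without one (0.010%), and in 49 of 370 unnamed genes (13.2%). The named genes were the members Pebp1, Gm4737, Atp5md, Wdr89 and Lrp1b, together with Hmga1b, which is not a member. The mirror image, a rise in both untransduced lines and a fall in the 3 mutant lines, was found in 4, 1 and 10 of the same genes. These counts followed a look at the values and are given without a test.

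Members were also compared with wildtype on the same day. The 2 groups had been divided by their day 0 to day 1 change in the transduced lines, so their differences on those days follow in part from the division. EMD-/y had 0 of 12 members past 2-fold in either direction on day 0, 1 on day 1 (Atp5md, at -1.65 on the log2 scale) and 0 on day 2, beside 6.36%, 4.92% and 5.33% of named genes. Both lines were chosen to share the fall and the rise, so nothing is read from these counts. On day 0, 5 members were past 2-fold for S54F, 6 for Δ95–99, 6 for Q133H and 3 for +EMD, beside 8.31%, 8.63%, 10.7% and 13.3%. Most of these were low values of crossing members, of which 4, 5, 5 and 1 lay below wildtype. On day 1 the counts were 8, 6, 6 and 6 beside 8.33%, 16.8%, 20.0% and 15.8%, and all of these members were higher than wildtype. The rule chose members that were low in wildtype on day 1, so a higher value elsewhere on that day follows in part from the choice. Without the 5 members with near-identical copies the day 1 counts were 3 for S54F, 2 for Δ95–99, 1 for Q133H and 2 for +EMD.

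On day 2, S54F had 0 members past 2-fold against wildtype, Δ95–99 had 4, Q133H 5 and +EMD 2, beside 7.90%, 19.0%, 30.3% and 15.4% of named genes. Of the 6 crossing members 1 was past 2-fold by then, Atp5md in Δ95–99 at -1.42. Short of 2-fold, Atp5md was also lower in the other lines, at -0.99 in EMD-/y, -0.84 in S54F, -0.96 in Q133H and -0.84 in +EMD. Of the falling members, Mcrip2 was lower in Δ95–99, Q133H and +EMD by log2 differences of -1.61, -1.74 and -1.86. Slc29a2 was also lower in these lines, at -1.29, -2.07 and -1.33. Asns was at -1.45 in Δ95–99 and -2.10 in Q133H, Syt7 was at -3.23 in Q133H, and Gsta4 was higher in Q133H at 1.22. Myog, the myogenic differentiation factor, was at 22025 in Q133H, 46219 in Δ95–99 and 49992 in +EMD on day 2 against 51649 in wildtype. Other muscle markers differed more. Myh3, a myosin heavy chain, was at 21149, 84864 and 128188 in the same order against 268822, and Ckm at 1036, 3268 and 4692 against 9006. Des, Acta1 and Mymk were also lower in these lines. Myf5 was higher in each of them, and Myod1 was higher in Δ95–99 and +EMD only. Pax7 was higher in the same lines as Myod1. These are the highest means listed for each group, from tables normalized separately. The part of differentiation, as read from these markers, in the members' differences was not tested. All 5 comparisons use the same wildtype libraries and are not independent.

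Of 23 gene lists drawn up for this tissue and treatment, 3 held a member and 20 held none. Those without a member included the cell cycle, the muscle genes, interferon response and sterol synthesis. In Q133H, 18 of 26 measured late muscle genes nevertheless made a whole dip past 2-fold, beside 1.68% of named genes. The same count was 0 of 29 in wildtype, 0 of 28 in EMD-/y, 1 of 28 in S54F, 2 of 25 in Δ95–99 and 0 of 26 in +EMD. The ATF4 and unfolded protein list held Asns. Among its 29 measured genes, 5 fell past 2-fold from day 0 to day 1 in wildtype, 7 in EMD-/y, 10 in +EMD, 4 in S54F, 3 in Δ95–99 and 1 in Q133H. From day 1 to day 2, 8, 18, 16, 19, 6 and 3 of the 29 rose past 2-fold in the same order of lines. Whole dips numbered 1, 4, 6, 3, 1 and 1, so most of these rises did not follow a fall past 2-fold. The median log2 change of the list from day 1 to day 2 was 0.80, 1.21, 1.10, 1.13, 0.63 and 0.05. The medians of all named genes lay between -0.03 and 0.00. Q133H, in which Asns did not return, was also the line with the smallest median of the list, which includes Asns. The list did not move as one there. The 3 genes that rose past 2-fold in Q133H were Atf3, Ddit3 and Slc7a11, by 1.42, 1.48 and 1.36, and 2 genes fell past 2-fold.

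In wildtype Asns, whose dip is fixed by the rule, was the only gene of the list with a whole dip. EMD-/y had 4, Asns with Chac1, Psph and Slc7a11, of which Chac1 degrades glutathione, Psph completes serine synthesis and Slc7a11 imports cystine. In EMD-/y the log2 changes of these 3 were -1.005, -1.32 and -2.59 and then 1.98, 1.33 and 1.45. They missed the rule in wildtype, where their day 1 changes were -0.85, -1.04 and -0.44 and their day 2 changes 1.96, 0.83 and 0.09. Fkbp11, a member that encodes a prolyl isomerase of the endoplasmic reticulum, was not on the list.

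The Asns promoter is shown because Asns is the member on the ATF4 list. It is the window of 250 bases before and 50 bases after the start, on the minus strand at chr6:7693160-7693459, from RefSeq GRCm38.p6. The capitals mark the CARE motif TGATGNAA, which begins 23 bases before the annotated start and overlaps a heat shock motif (GAANNTTC) by several bases.

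Asns promoter: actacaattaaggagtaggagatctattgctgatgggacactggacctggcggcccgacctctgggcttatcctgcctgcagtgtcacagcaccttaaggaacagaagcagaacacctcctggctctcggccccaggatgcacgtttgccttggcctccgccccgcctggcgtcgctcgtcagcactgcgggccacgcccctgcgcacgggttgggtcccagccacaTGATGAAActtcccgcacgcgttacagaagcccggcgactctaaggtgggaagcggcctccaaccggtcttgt

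Of the 9 members with a promoter in the table, Asns alone held this motif, and 4.06% of 27025 promoters did. Among the other motifs searched on both strands, CCAAT was in 4 of the 9 (Pebp1, Wdr89, Mcrip2 and Atp5md) beside 37.9% of promoters, and TATAAA in 3 (Gm4737, Atp5md and Rpl39) beside 14.2%. The heat shock motif was in Pebp1 and Asns beside 7.95%, the antioxidant motif TGACNNNGC in Asns and Mcrip2 beside 12.5%, and ACGTG in Asns and Wdr89 beside 19.7%. None of the 9 windows held AP-1, CRE, GAS, ISRE, SREBP, TEAD, E2F or either E-box motif. A match is a description of these letters, and no motif was common to the members.

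The NRF2 antioxidant list held Gsta4. In wildtype 8 of its 16 genes fell past 2-fold from day 0 to day 1 and 0 rose, with a median of -1.01, and in EMD-/y 8 fell with a median of -1.22. The log2 change of Nqo1, a quinone reductase, was -3.59 in wildtype and -3.02 in EMD-/y, and that of Gclm, the modifier subunit of glutathione synthesis, -2.20 and -2.49. The return of Gsta4 in both lines is fixed by the rule. From day 1 to day 2, 1 of the 16 rose past 2-fold in wildtype (Gsta4) and 2 in EMD-/y (Gsta4 and Slc7a11, at a log2 change of 1.45). Slc7a11 also rose in S54F, Q133H and +EMD, at 1.13, 1.36 and 1.19, whereas Gsta4 rose past 2-fold in Q133H alone of the transduced lines. In the transduced lines 8 of the 16 fell for S54F, 6 for Δ95–99, 3 for Q133H and 7 for +EMD from day 0 to day 1, with none rising in that step.

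The cytosolic ribosomal protein list held Rpl39. It was the only 1 of 67 measured genes to fall past 2-fold from day 0 to day 1 in wildtype or in EMD-/y, where the medians of the list were -0.19 and -0.19. The fall of Rpl39 itself is fixed by the rule. A pair of other ribosomal genes, Rps13 and Rps29, rose past 2-fold in these lines and fell in all 4 transduced lines. Rps13 went from 655 to 1526 and then 339 in wildtype, and from 2183 to 408 and then 316 in S54F. Rps29 went from 96.2 to 274 and 60.3 in wildtype, and from 407 to 103 and 98.97 in S54F. These genes are the mirror image of the crossing members.

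Levels differed widely between members. Per kilobase of listed length, the wildtype day 0 mean was 8009 normalized counts for Rpl39, 2072 for Pebp1, 1281 for Atp5md and 1090 for Asns, and it was 8.70 for Syt7. The members with copies ranged from 54.6 for Gm4737 to the 8009 of Rpl39 on this scale, so they were not all highly expressed genes.

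The members nearest to the 2-fold threshold were Rpl39, Syt7 and Slc29a2, whose smallest change of the 4 was 1.01, 1.01 and 1.02 on the log2 scale. Just outside were Coa8, Tuba1b and Tmem151a, at 0.96, 0.96 and 0.96.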

How the data were processed

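RNA from 18 groups of H2K progenitors (54 samples, 6 lines, days 0, 1 and 2) was sequenced as paired 100-base reads by BGI. Per the labels and methods, reads were filtered with SOAPnuke, mapped to mm10 with HISAT2, and compared with DESeq2. Tool versions are not given in the sources used here. The 27 deposited tables (12 between consecutive days, 15 between a line and wildtype) give normalized counts, a signal, as the authors' mean of each group. They hold 0 columns of per-sample values, so depth and error per sample are unknown. Their fold changes, p-values, q-values and calls are the authors' own comparisons and were not used. Tables were normalized separately, so log2 changes and calls were taken within a table. Means printed side by side can come from different tables and then differ in scale. Days 0 and 1 come from a line's first transition table and day 2 from its second. For Gsta4 in wildtype the printed day 1 and day 2 means were 108 and 179, and the log2 change within the second table was 1.14. Levels set beside each other across lines or from day 0 to day 2 carry the same limit.

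Changes were log2((later mean + 1)/(earlier mean + 1)), which understates changes of low genes, and called means past 2-fold, with no test. Symbols were matched by Entrez identifier to RefSeq GRCm38.p6. Shares refer to named genes with a mean of at least 30 in either group of each table. Members named, other than those with symbols of Gm and digits, were the 12 deepest dips (by the smallest of the 4 changes the rule used), the 8 with the highest wildtype day 0 mean, those on a list, and the 3 deepest and 3 shallowest dips of each transduced line. Of the 13 genes that met the rule, 1 is not reported here and is left out of every count of members. Members and lists were chosen with earlier results of these data known. The search for copies (blastn 2.17.0, GENCODE M21, at least 97% identity over 150 bases) was set after values were seen. The rule was tested on simulated data with dips deeper than 2-fold, in genes with wildtype day 0 means of at least 100. That simulation does not cover members near the threshold or with lower means. Alternatives were a pseudocount of 10, 1.5-fold and 3-fold, centring each table, and other minimum means. Python 3.11.15, numpy 2.4.6, pandas 2.3.3 and matplotlib 3.10.9 were used.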

Additional observations from a re-analysis of the deposited data

How the results depend on the processing

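No paired analysis was possible because the tables hold only group means, and for the same reason no replicate could be left out. Of 56 alternative values for 10 counts, 33 stayed within 1.5 times. Centring each table changed none of the 10 counts. For other folds, pseudocounts and centring, dips and day 1 counts were taken over the 12 members above, not over the members of that setting. For the minimum mean of 100 and without copies, they were taken over the members left. At 1.5-fold the rule gave 94 members, of which 12 were the members above, and dips numbered 5 in S54F, 4 in Δ95–99 and 3 in +EMD. Members past the fold against wildtype on day 1 were then 4 in EMD-/y. At 3-fold the rule gave 5 members. Of the 12, dips then numbered 1 in S54F and 0 in Δ95–99, Q133H and +EMD. On day 1, 5 of the 12 were past 3-fold against wildtype in S54F. With a pseudocount of 10 there were 8 members, and dips numbered 1 in S54F and 0 in Q133H. A minimum mean of 100 left 6 members, with 0 dips in S54F, Δ95–99 and Q133H, and a minimum of 10 gave 17. Leaving out members with near-identical copies, chosen after seeing the data, left 7 members with the same dip counts, and 0 in EMD-/y, 2 in +EMD, 3 in S54F, 2 in Δ95–99 and 1 in Q133H past 2-fold against wildtype on day 1. Low means, as for Lrp1b and Gm4737 on day 1, limit the precision of a fold in a way these tables cannot show.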
